A study of Mus musculus with 6 samples.

Results

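The fibroblast growth factor (FGF) receptors and the ligands of the lacrimal gland bud were followed as 10 genes out of 23420 listed in the count tables. They were chosen by symbol, as the 4 receptor genes Fgfr1, Fgfr2, Fgfr3 and Fgfr4 and the 6 ligand genes Fgf1, Fgf2, Fgf7, Fgf9, Fgf10 and Fgf20. All 10 were listed, and 6 of them passed the filter on low counts. Fgfr4, Fgf2, Fgf7 and Fgf10 did not, and their counts are given without a fitted test.

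The samples were lacrimal gland buds of E14.5 mouse embryos on a mixed background, frozen in embedding medium, from which the bud epithelium was cut by laser capture, and the RNA was amplified before sequencing. The labels give the genotype of the 3 Control samples as Le-Cre, while the study's methods also name carriers heterozygous for the Pea3, Erm and Er81 alleles among its controls in general. The 3 Pea3 TKO samples carried Le-cre, Pea3-/-, Erm fl/fl and Er81 fl/fl, so that Pea3 (Etv4) was a germline null while Erm (Etv5) and Er81 (Etv1) were floxed alleles deleted where Cre was made. Both groups therefore carried the Cre transgene, whose activity covers the ocular surface epithelium that the gland grows from, and which also makes GFP. The labels do not say whether embryos were pooled or whether littermates were used.

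FGFs are secreted proteins that bind receptor tyrosine kinases together with heparan sulfate, and the activated receptor signals through adaptor proteins, Ras and the ERK kinases to transcription factors that include the Pea3 family. In the lacrimal gland, Fgf10 made by the mesenchyme acts on Fgfr2 of the epithelium, and this exchange is needed for the bud to form. Alternative exons of Fgfr2 give an epithelial IIIb form that binds Fgf7 and Fgf10 and a mesenchymal IIIc form, and the gene counts analysed here do not separate the forms. The comparison asks how the receptors and ligands of the pathway were expressed when its Pea3 transcription factors were missing.

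Each sample held 14194775 to 17860140 counts, and levels are given as CPM, the count of a gene per 1000000 counts of its library after scaling by the TMM factors of edgeR. The targeted genes were measured first. Etv5 fell from 1058 ± 127 CPM in Control to 139.2 ± 45.8 CPM in Pea3 TKO, Etv4 from 151.1 ± 29.1 to 19.5 ± 8.79 CPM and Etv1 from 31.8 ± 2.79 to 9.52 ± 0.410 CPM (mean ± SD, n = 3 per group). The groups did not overlap for any of these 3 genes. Etv4, the germline null, kept 171, 273 and 484 counts in the Pea3 TKO samples, so gene counts do not measure loss of the alleles. Libraries were not alike in other respects. The sum of 4 Y-linked genes was 135.7 to 174.7 CPM in the Control samples and 139.0 CPM in Pea3 TKO replicate 3, and 0.445 and 0.210 CPM in Pea3 TKO replicates 1 and 2. The sum of 15 mesenchymal markers was 246.5, 369.6 and 437.3 CPM in Control and 700.7, 844.8 and 223.0 CPM in Pea3 TKO. Replicates 1 and 2 of the mutant therefore stood apart from replicate 3 in both measures, and values without them are given beside the results that change.

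Of the 6 members tested, 5 passed an adjusted p of 0.05 in the quasi-likelihood test of edgeR with Benjamini-Hochberg adjustment. The background is high, since 25.0% of the 13087 genes tested passed, with 13.6% higher and 11.3% lower in Pea3 TKO. The groups did not overlap for 3 of the 6 members tested, and for 43.9% of all genes tested. Fgfr2 and Fgfr3 were higher, Fgfr1, Fgf1 and Fgf20 were lower, and Fgf9 did not pass. Fgf20 passed the filter only through its Control samples, so no difference is read from its call. These counts describe the members that could be tested and not all 10.

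**Figure D1:**
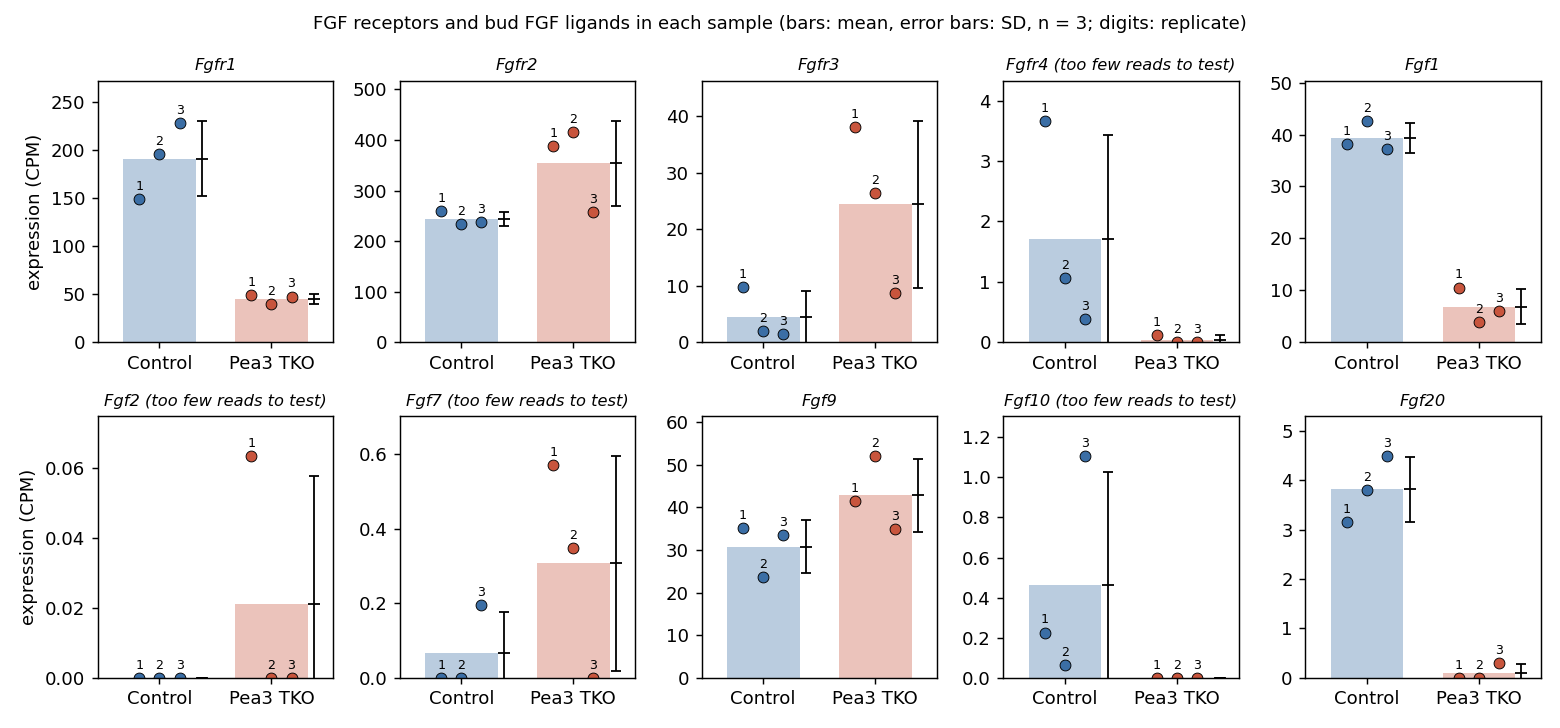
Levels of the 10 genes in each sample, in CPM on linear axes that differ between genes, with each point a sample labelled by its replicate number, bars the group mean and error bars the SD (n = 3 per group). Fgfr1, Fgf1 and Fgf20 lay lower in every Pea3 TKO sample than in any Control sample, whereas the groups overlapped for Fgfr2, Fgfr3 and Fgf9, beside 43.9% of all tested genes without overlap.

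Among the receptors, Fgfr1 showed the largest difference between the groups relative to its error. Fgfr1, a receptor used widely in mesenchyme and also in epithelia, measured 149.2, 195.5 and 227.3 CPM in the Control samples and 48.9, 39.3 and 47.5 CPM in the Pea3 TKO samples. Every mutant sample was below every control sample. Fgfr1 expression fell 4.21-fold, with a log2 fold change of -2.07 (SE 0.17, adjusted p = 7.3e-05, edgeR). Its mean went from 190.7 ± 39.2 to 45.2 ± 5.19 CPM. The call was kept without any 1 sample, where the log2 fold change lay between -2.23 and -1.93. Without Pea3 TKO replicates 1 and 2 it was -2.0 (adjusted p = 0.017). Fgfr1 lies on chromosome 8 from 25513654 to 25575718 (GRCm38, GENCODE M21).

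Fgfr2, the receptor through which Fgf10 acts on the epithelium, was the most abundant receptor. It measured 258.6, 234.2 and 237.7 CPM in Control and 388.3, 414.9 and 257.9 CPM in Pea3 TKO. Replicates 1 and 2 of the mutant were high, whereas replicate 3 lay within the control range. Fgfr2 was 1.45-fold higher in Pea3 TKO, with a log2 fold change of 0.54 (SE 0.17, adjusted p = 0.043, edgeR). This call was lost when any sample other than Pea3 TKO replicate 3 was left out (adjusted p = 0.051 to 0.154), and without Pea3 TKO replicates 1 and 2 the log2 fold change was 0.094 (adjusted p = 0.73). With the mean log2 CPM of the Y-linked genes as a covariate it was 0.091 (adjusted p = 0.79). That covariate was low only in Pea3 TKO replicates 1 and 2. The fit therefore cannot tell Y-linked expression from anything else about those libraries, and its part in the difference was not tested. The gene spans 130162451 to 133123350 on chromosome 7, a range that takes in a transcript sharing 3.04% of the exonic bases with Ctbp2.

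Fgfr3 was lower in level and more variable. It measured 9.75, 2.06 and 1.43 CPM in Control and 38.1, 26.4 and 8.75 CPM in Pea3 TKO. Pea3 TKO replicate 3 was below Control replicate 1, and the other Control samples were below all of the mutants. The fit gave a 5.48-fold higher level in Pea3 TKO, with a log2 fold change of 2.45 (SE 0.72, adjusted p = 0.033, edgeR). The adjusted p rose to between 0.085 and 0.127 without Control replicate 2, Control replicate 3, Pea3 TKO replicate 1 or Pea3 TKO replicate 2. Without both Pea3 TKO replicates 1 and 2 the log2 fold change was 1.0 (adjusted p = 0.62). With the Y-linked covariate, which was low only in those 2 libraries, it was 1.06 (adjusted p = 0.55). Among the exonic bases of Fgfr3 (chromosome 5, 33721674 to 33737068), 13.9% are shared with a gene on the opposite strand, and the strand setting of the counting is not given in the sources used here.

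Stratified epithelial markers, 5 keratins with Sfn and Trp63, differed along with Fgfr3. The sum of the 7 was 1574, 597.5 and 541.4 CPM in Control and 7291, 6385 and 5114 CPM in Pea3 TKO. Of the 7, 6 were called higher, beside 13.6% of all genes tested. The exception was Trp63, the transcription factor of stratified epithelia, at 179.2 ± 36.2 CPM in Control and 174.2 ± 61.7 CPM in Pea3 TKO. The most abundant of them, Krt15, a keratin of basal epithelial cells, measured 719.9, 137.6 and 63.1 CPM in Control and 4357, 3462 and 2212 CPM in Pea3 TKO. Control replicate 1 was the highest control for both Krt15 and Fgfr3, and Pea3 TKO replicate 3 the lowest mutant for both. In bulk samples, more cells of a type and more RNA per cell cannot be told apart, and the part of cell composition in the difference of Fgfr3 was not tested.

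Fgfr4, a receptor best known from liver and muscle, was close to absent in the mutant. Its counts were 65, 17 and 6 in Control and 2, 0 and 0 in Pea3 TKO, which correspond to 3.66, 1.06 and 0.390 CPM against 0.127, 0 and 0 CPM. The groups did not overlap, and the exact permutation test (two-sided) gave p = 0.10, the smallest value that 3 samples against 3 allow. The summed counts stood at 88 to 2, a ratio of 42.1 with a 95% counting interval of 11.3 to 353. That interval covers counting error only, and Control replicate 1 held most of the counts. The gene did not reach the filter. In fits that include it, the adjusted p was 0.028 without a filter (edgeR) and 0.0059 with DESeq2. Fgfr4 lies on chromosome 13 from 55152640 to 55168759.

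Windows around annotated starts (RefSeq, GRCm38.p6) were searched on both strands over 300 bases, from 250 before to 50 after the start. There were 8 such windows for 7 of the members and none for Fgfr1, Fgf1 and Fgf20, the 3 members called lower, so the search does not bear on them. ETS factors such as the Pea3 family bind sites around GGAA, and CCGGAA is a longer form of such a site. GGAA was in all 8 windows and in 96.0% of all 32851 windows. CCGGAA was in 14.9% of all windows and, of the 8, only in that of Fgfr4. The longer CCGGAAGT, which contains both, was in 3.89% of all windows and in none of the 8. The Fgfr4 match lay on the plus strand, with its first base 178 before the RefSeq start. That base, 55152640, is the first base of Fgfr4 in GENCODE M21, so that by that annotation the match lies inside the gene and not before it. The 30 bases that end with this match are shown because it was the single one among the members, with the match in capitals (chr13:55152616-55152645, plus strand), and the 250 bases before the start of Fgfr2, the most abundant receptor, are shown as a window without it (chr7:130266809-130267058, minus strand), both 5′ to 3′.
Fgfr4: accttgcaggttggacgtggggccCCGGAA
Fgfr2: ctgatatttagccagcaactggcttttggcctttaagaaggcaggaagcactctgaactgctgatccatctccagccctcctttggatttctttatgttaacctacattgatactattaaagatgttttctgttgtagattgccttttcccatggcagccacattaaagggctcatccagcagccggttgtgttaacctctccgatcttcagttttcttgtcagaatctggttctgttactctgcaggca

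These matches describe the letters of the windows and are no measure of binding.

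Expressed per kilobase of exonic length, the order of receptors in Control was Fgfr2 (23.6 ± 1.28 CPM per kb), Fgfr1 (19.3 ± 3.97), Fgfr3 (0.617 ± 0.647) and Fgfr4 (0.481 ± 0.488). The ranges of Fgfr2 and Fgfr1 overlapped, as did those of Fgfr3 and Fgfr4. In Pea3 TKO the level of Fgfr2 was 34.2 ± 8.14 CPM per kb, and its lowest sample, 25.0, was above the highest sample of Fgfr1, 4.95. Fgfr1 at 4.58 ± 0.526 and Fgfr3 at 3.41 ± 2.06 CPM per kb overlapped, while Fgfr4 was at 0.0120 ± 0.0207.

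The share of each receptor in the summed receptor level was compared next. Fgfr1 made up 35.5%, 46.0% and 49.7% of the summed receptor level per length in the Control samples and 10.3%, 8.32% and 15.5% in the Pea3 TKO samples. The share of Fgfr2 was 58.8%, 52.7% and 49.7% in Control and 78.5%, 84.0% and 80.5% in Pea3 TKO. The share of Fgfr3 went from 1.43 ± 1.54% to 7.58 ± 3.59%, and that of Fgfr4 from 1.12 ± 1.16% to 0.0249 ± 0.0432%. Control replicate 1 held much of the Fgfr4 share, whose change went from -1.10 to -0.44 percentage points without it. Without Pea3 TKO replicates 1 and 2 the change in the Fgfr3 share was 2.51 percentage points in place of 6.15. For each of the 4 shares the groups did not overlap, with an exact permutation p = 0.10, the smallest possible. The shares are parts of a whole, so they are not separate results, and a lower Fgfr1 level alone raises the others. In Pea3 TKO replicate 3 the Fgfr2 share was 80.5%, while its level, 257.9 CPM, lay within the Control range of 234.2 to 258.6 CPM. The summed level of the receptors was 44.0 ± 2.06 CPM per kb in Control and 42.3 ± 9.74 in Pea3 TKO (exact permutation p = 1.0).

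**Figure D2:**
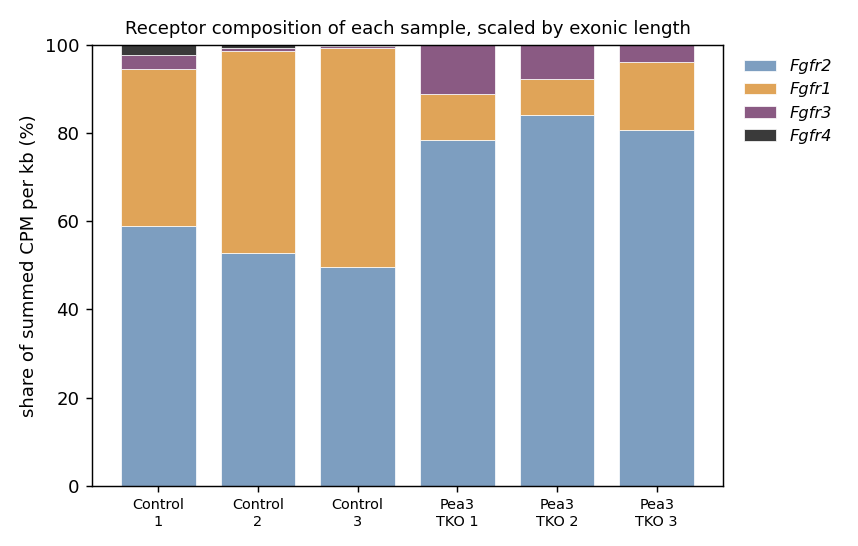
Share of each receptor gene in the summed level of the 4 FGF receptors (percent of CPM per kb) in the 3 Control and 3 Pea3 TKO samples. Fgfr1 took 35.5% to 49.7% in Control and 8.32% to 15.5% in Pea3 TKO, while Fgfr2 took 49.7% to 58.8% and 78.5% to 84.0%. Shares are parts of a whole and not separate results.

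Ratios between receptors were compared in all 6 pairs, as the change of the mean log2 ratio of (CPM + 1) from Control to Pea3 TKO. The log2 ratio of Fgfr1 to Fgfr2 was -0.37 ± 0.37 in Control and -2.92 ± 0.48 in Pea3 TKO, a change of -2.54, and that of Fgfr1 to Fgfr3 changed by -4.38. In these pairs the groups did not overlap (exact permutation p = 0.10 each, 0.15 adjusted over the 6 pairs). Without Pea3 TKO replicates 1 and 2 the changes were -2.04 and -3.14. The ratio of Fgfr2 to Fgfr3, with a change of -1.83 (exact permutation p = 0.20), overlapped between the groups. Fgfr4 was at or near 0 in the mutant, so its 3 ratios are set by the added 1 CPM and no size or direction is read from them. With 3 samples a group, none of these tests could pass 0.05.

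Among the ligands, Fgf1 fell, Fgf20 is described by its counts and Fgf9 did not pass the test. Fgf1, a ligand that binds all FGF receptors and lacks a classical secretion signal, measured 38.2, 42.6 and 37.3 CPM in Control and 10.5, 3.99 and 5.99 CPM in Pea3 TKO. The highest mutant sample was well below the lowest control. Fgf1 fell 5.74-fold, with a log2 fold change of -2.52 (SE 0.32, adjusted p = 0.00075, edgeR). Leaving out any 1 sample gave -2.97 to -2.25, all called, and the fit without Pea3 TKO replicates 1 and 2 gave -2.70 (adjusted p = 0.0061). The gene lies on chromosome 18 from 38838673 to 38929472.

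Fgf20, a secreted ligand of the Fgf9 subfamily that is made by several embryonic epithelia, was low in Control and nearly undetected in Pea3 TKO. The counts were 56, 61 and 69 in Control and 0, 0 and 5 in Pea3 TKO, or 3.16, 3.80 and 4.49 CPM against 0, 0 and 0.294 CPM. The groups were far apart, and all 5 mutant counts came from replicate 3. The log2 fold change was -5.11 (SE 1.08, adjusted p = 0.0085, edgeR). Fgf20 reached the filter on low counts only through its Control samples, so no difference is read from its p-values. The ratio of summed counts was 35.6 with a 95% counting interval of 14.99 to 111. Without Pea3 TKO replicate 3 the remaining mutants were at 0, and no fold is read from them. Without Pea3 TKO replicates 1 and 2 the log2 fold change was -3.66. With the Y-linked covariate, low only in those libraries, it was -3.74 (adjusted p = 0.096). Of its exonic bases (chromosome 8, 40279166 to 40308331), 12.04% are shared with Micu3 on the opposite strand.

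Fgf9, the founding member of the same subfamily, measured 35.1, 23.7 and 33.5 CPM in Control and 41.5, 52.0 and 34.9 CPM in Pea3 TKO. Pea3 TKO replicate 3 was below the highest control sample. The log2 fold change was 0.47 (SE 0.21), which did not pass (adjusted p = 0.127, edgeR). The difference between the changes of Fgf9 and Fgf20 was not tested. Fgf9 lies on chromosome 14 from 58070547 to 58112720.

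The ligands of the mesenchyme were at the limit of detection in these epithelial captures. Fgf10, the ligand that starts the bud, had 4, 1 and 17 counts in Control and 0, 0 and 0 in Pea3 TKO. All mutants were below all controls (exact permutation p = 0.10, the smallest possible). Against a floor of 3 counts over the group the level was 7.02-fold lower. The 95% counting interval of the ratio of summed counts began at 5.24. Without Control replicate 3 only 5 control counts were left, and the level against the floor was 2.32-fold lower. The mesenchymal collagen Col3a1 measured 2.99, 6.42 and 53.3 CPM in Control and 119.5, 213.3 and 1.997 CPM in Pea3 TKO, and the part of captured mesenchyme in the Fgf10 counts was not tested. The gene runs from 118669791 to 118792115 on chromosome 13, and in fits that include it the adjusted p was 0.095 without a filter (edgeR) and 0.111 with DESeq2.

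Fgf7, a mesenchymal ligand of the IIIb form of Fgfr2, had 0, 0 and 3 counts in Control and 9, 5 and 0 in Pea3 TKO. The groups overlapped (exact permutation p = 0.40), and the ratio of summed counts, 4.87, had a 95% counting interval of 1.36 to 26.5. All 14 mutant counts came from Pea3 TKO replicates 1 and 2, and without them the mutant was at 0 against 3 control counts. The counts lay in the 3 libraries with the most Col3a1, namely Pea3 TKO replicates 1 and 2 and Control replicate 3, and the part of captured mesenchyme in them was not tested. Fgf2, a ligand bound tightly by heparan sulfate, had a single count, in Pea3 TKO replicate 1, and no difference was detectable at this depth. Fgf7 lies on chromosome 2 from 126034658 to 126091185 and Fgf2 on chromosome 3 from 37348346 to 37410108. A count of 3 corresponds to 0.169 to 0.210 CPM in these libraries.

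Per length, the ligands of the Control samples ranked Fgf1 (7.21 ± 0.524 CPM per kb), Fgf9 (6.62 ± 1.32), Fgf20 (2.27 ± 0.396), Fgf10 (0.101 ± 0.122) and Fgf7 (0.0200 ± 0.0347), with Fgf2 at 0. Fgf1 and Fgf9 overlapped in Control. In Pea3 TKO, Fgf9 was at 9.21 ± 1.85 CPM per kb and Fgf1 at 1.25 ± 0.615, and their samples did not overlap. Fgf9 was then the most abundant of the 6 ligands.

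The rest of the FGF pathway was examined by lists ordered by role. Of 16 other ligand genes, 7 had no count in any sample and 2 were tested. Neither passed with edgeR, whereas both had an unadjusted p under 0.05 and DESeq2 called 1, Fgf11. Fgf11 reached the filter on low counts only through its Pea3 TKO samples, so no difference is read from its p-values. Fgf11 and Fgf13 belong to the intracellular FGF homologous factors, which do not act through FGF receptors. Fgf11 measured 0.902, 0.0623 and 0.195 CPM in Control and 1.91, 2.80 and 1.997 CPM in Pea3 TKO, and Fgf13 went from 4.33 ± 1.16 to 8.51 ± 1.67 CPM. Of the co-receptors, the decoy receptor and the ligand carriers, 3 genes were tested and none passed (1 with an unadjusted p under 0.05, none with DESeq2).

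The receptor adaptors, which link activated receptors to Ras, gave no call among 14 tested, with a median log2 fold change of 0.10 beside 0.0094 for all genes tested. An unadjusted p under 0.05 was found for 4 of them, and DESeq2 called 1, Gab1. Of 15 Ras, Raf, MEK and ERK pathway genes tested, 3 passed beside 25.0% of all genes tested, and the 2 that were higher are described here. Mapk3, which encodes ERK1, rose from 58.9 ± 0.263 to 85.2 ± 2.37 CPM (log2 fold change 0.53, adjusted p = 0.011, edgeR). Map2k1, which encodes MEK1, rose from 66.0 ± 8.91 to 94.7 ± 8.88 CPM (adjusted p = 0.026). No gene of this list passed in the fit with the Y-linked covariate or without Pea3 TKO replicates 1 and 2, 1 passed without Control replicate 2 or without Control replicate 3, and DESeq2 called 5.

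Among 4 regulators of the Fgfr2 exon choice, 2 rose, beside 13.6% of all genes tested, and with so few genes nothing is read from the count. Esrp2, an epithelial splicing factor that favours the IIIb exon, measured 68.5, 44.7 and 41.4 CPM in Control and 218.3, 196.2 and 148.6 CPM in Pea3 TKO. All mutants exceeded all controls, with a log2 fold change of 1.86 (SE 0.21, adjusted p = 0.00045, edgeR). Esrp1, its paralogue, rose from 150.9 ± 7.21 to 210.1 ± 28.0 CPM (log2 fold change 0.48, adjusted p = 0.022). Only 1 of these regulators passed without Control replicate 2, without Control replicate 3, without Pea3 TKO replicate 1, without Pea3 TKO replicates 1 and 2, or with the Y-linked covariate. Most simple epithelial markers moved the same way, with 6 of 7 called higher beside 13.6% of all genes tested. The other was not called, and its log2 fold change was not positive. The sum of the 7 went from 2977 to 3790 CPM in Control to 5484 to 6424 CPM in Pea3 TKO. The part of this difference in the levels of Esrp1 and Esrp2 was not tested.

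**Figure D3:**
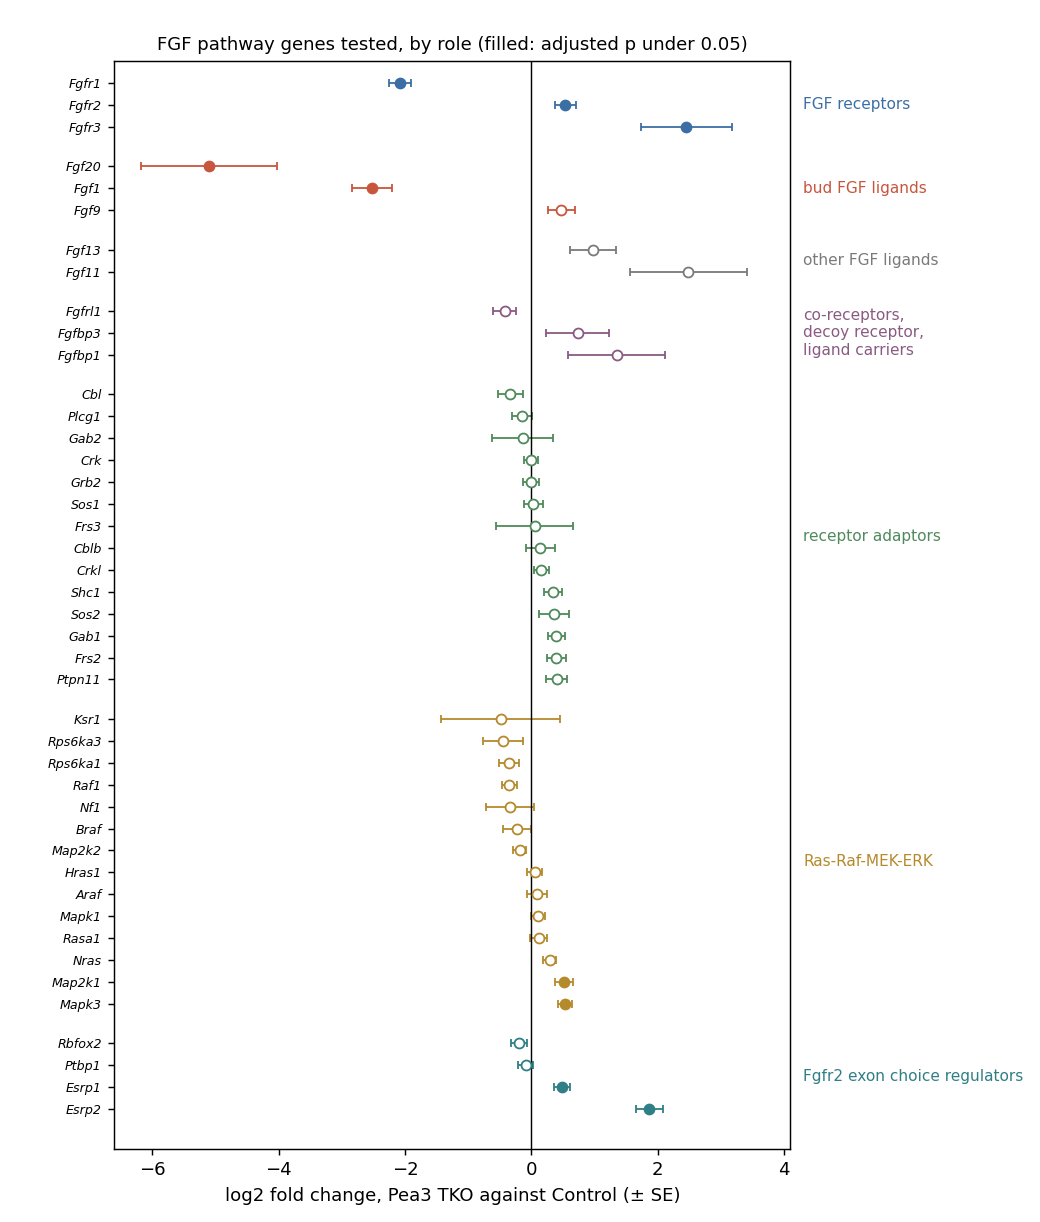
Log2 fold change (Pea3 TKO against Control, edgeR) of the tested genes in each role list of the FGF pathway, with 1 Ras-Raf-MEK-ERK gene not shown, each point a gene with its SE, and filled points those with an adjusted p under 0.05. Calls lie among the receptors, bud ligands, Ras-Raf-MEK-ERK genes and exon choice regulators, and none among the 14 adaptors.

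The effect of leaving out samples was uneven over the members, as the plot of fold changes by setting shows. Fgfr1 and Fgf1 kept their calls in all 15 alternative fits. Fgfr2 and Fgfr3 kept their direction in all of them but not their calls, and Fgf20 lost its call in 2.

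**Figure D4:**
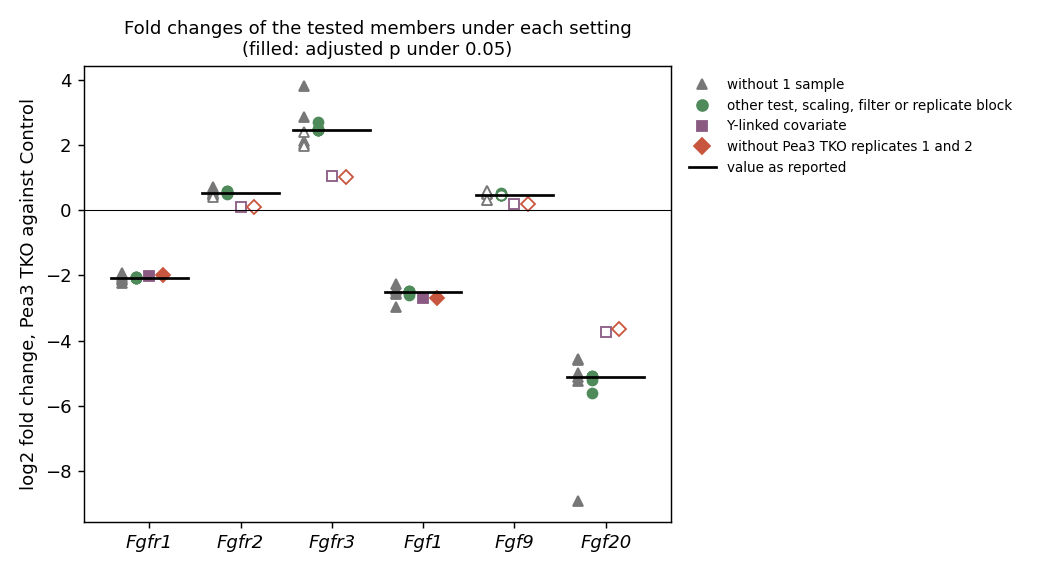
Log2 fold change of the 6 tested members (Pea3 TKO against Control) under each alternative setting, with the value as reported as a black line and filled symbols for an adjusted p under 0.05. Fgfr1 stayed between -2.23 and -1.93 when single samples were left out, while Fgfr2 was at 0.54 as reported and at 0.094 without Pea3 TKO replicates 1 and 2.

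The genes most like each variable receptor across the 6 samples were sought among 10786 tested genes with a mean of at least 5 CPM, by Pearson's r of log2(CPM + 1). For Fgfr1 they were Atp2a3 (r = 0.998), Mdfic (0.997) and Edar (0.997), of which Edar encodes the ectodysplasin receptor of developing skin appendages and glands. For Fgfr2 they were Abhd16a (0.993), Napepld (0.991) and Zfp128 (0.988). For Fgfr3 they were Fam213a (0.998), Atp6v0a1 (0.995) and Cyb5r1 (0.993). Such values are a description of 6 libraries that share their group difference, since 378 genes reached r of 0.95 with Fgfr1, 272 with Fgfr3 and 39 with Fgfr2.

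Epithelial markers were high in every sample, with simple epithelial sums of at least 2977 CPM. Endothelial markers summed to 0.176 to 7.76 CPM and skeletal muscle markers to 0.0635 to 3.37 CPM over all samples, and retinal markers to at most 0.374 CPM. Markers of some other tissues were present. Among the Schwann cell markers, 3 were tested and only Erbb3, a receptor that epithelia also express, was called lower. Erbb3 measured 263.5 ± 51.3 CPM in Control and 111.3 ± 8.89 CPM in Pea3 TKO. The log2 fold change was positive for 2 of the 3, neither of them called, so no direction is read for the list. Blood markers reached 380.8 CPM, in Pea3 TKO replicate 3, and lens markers 808.3 CPM, in Control replicate 2. Macrophage markers reached 24.1 CPM and pigment cell markers 7.27 CPM. Among the mesenchymal markers, 3 of 15 were called higher, Dcn, Col5a1 and Lum, and 1 lower, Fbn1. Over all genes tested 13.6% were higher and 11.3% lower, and nothing is read from these counts. Dcn measured 69.7 and 73.6 CPM in Pea3 TKO replicates 1 and 2 and 0.249 to 4.42 CPM in the other 4 samples. The part of these other tissues in the results for the members was not tested.

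**Figure D5:**
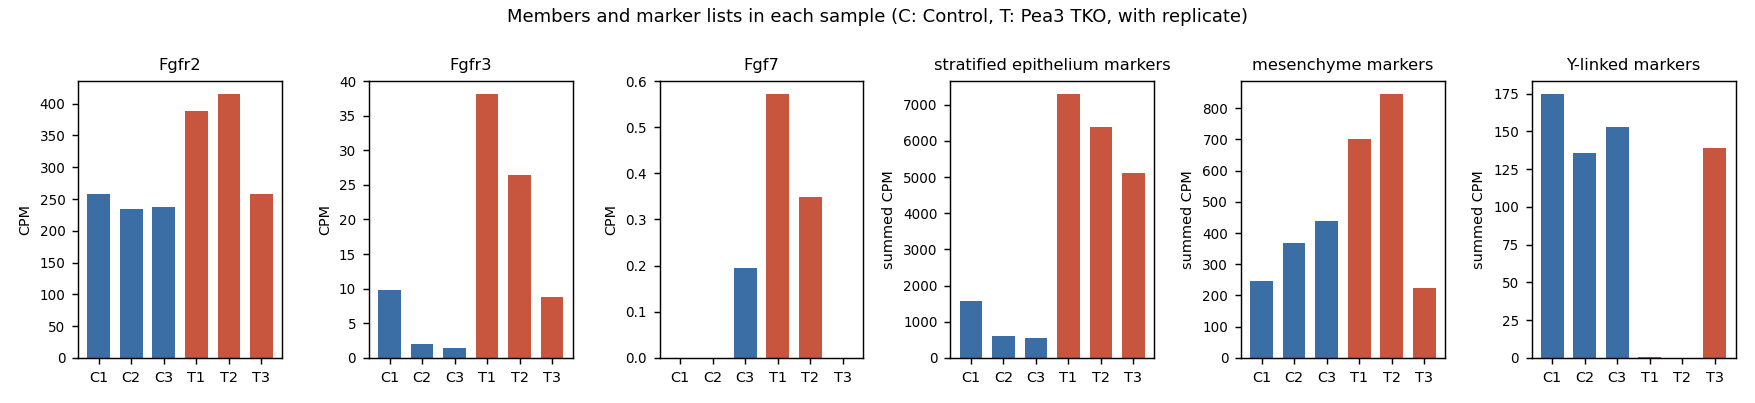
Levels of Fgfr2, Fgfr3 and Fgf7 (CPM) beside the summed CPM of the stratified epithelial, mesenchymal and Y-linked markers, with 1 bar for each Control (C) and Pea3 TKO (T) sample on linear axes. Stratified epithelial markers were at 541.4 to 1574 CPM in Control and 5114 to 7291 CPM in Pea3 TKO, and Y-linked genes were near 0 in Pea3 TKO replicates 1 and 2.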

How the data were processed

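RNA was measured in 3 Control and 3 Pea3 TKO samples of laser-captured E14.5 lacrimal gland buds. Per the labels, RNA was amplified with the Ovation kit before library preparation, so counts are not independent molecules. The authors deposited raw read counts by gene symbol, as 1 unnormalized table for each sample. The submitters' processing notes name bcl2fastq 2.17, STAR 2.5.2b, featureCounts 1.5.0-p3, DESeq and mm10. The annotation and the strand setting are not given in the sources used here.

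From these counts, edgeR 4.0.16 (R 4.3.3) was run with filterByExpr defaults (13087 of 23420 genes kept), TMM factors, genotype as the only term, the quasi-likelihood test and Benjamini-Hochberg adjustment at 0.05. The SE of a log2 fold change was derived from the F statistic, as its size over the root of F. Single values were compared by exact permutation tests in scipy 1.17.1. Exonic lengths and positions come from GENCODE M21 (GRCm38) by symbol. Counting intervals are exact at 95%, floors are 3 counts, and both cover counting error only. Nothing in the labels states that samples of a group came from separate animals, so p-values measure the spread between these samples.

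The members and gene lists were chosen with earlier results of these data known. The genes named were the members, the 3 Pea3 genes, up to 2 called genes in each direction per role list with the smallest p, the 3 genes most like each of Fgfr1, Fgfr2 and Fgfr3, and the most abundant markers. Fgf11, Fgf13, Gab1, Col3a1, Dcn, Lum and the marker sums of single samples were singled out after their values were seen. The scripts were tested on simulated data. Alternatives were DESeq2 1.42.0, other scalings and filters, the mean log2 CPM of the Y-linked genes as a covariate, the replicate number as a block, and leaving out each sample. Leaving out Pea3 TKO replicates 1 and 2 together was chosen after seeing the data, and that fit assumes that the lone mutant varies like the controls. Results for 1 gene of the Ras-Raf-MEK-ERK list and 1 marker gene are not reported here.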

Additional observations from a re-analysis of the deposited data

How the results depend on the processing

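No tested member changed direction in any of 15 alternative fits, and Fgfr1, Fgf1 and Fgf9 also kept their side of the threshold. With the Y-linked covariate the log2 fold change was 0.091 for Fgfr2 (adjusted p = 0.79), 1.06 for Fgfr3 (0.55) and -3.74 for Fgf20 (0.096). Without Pea3 TKO replicates 1 and 2 it was 0.094, 1.0 and -3.66. The covariate was low only in those mutants, so these settings are not separate tests. Leaving out single samples gave 0.41 to 0.72 for Fgfr2 and 1.98 to 3.80 for Fgfr3. All calls fell from 3268 genes to 865 with the covariate (538 higher, 327 lower) and to 597 without those 2 mutants (315 and 282), and lay at 1948 to 3344 with 1 sample left out (1131 to 1948 higher, 799 to 1417 lower). They were 1963 without Control replicate 2, 1948 without Control replicate 3 and 2072 without Pea3 TKO replicate 2. Of the other ligands, DESeq2 called 1, and 0 to 1 passed with a sample left out. Of the co-receptors and carriers 0 to 2 passed with a sample left out. Of the adaptors 1 passed with DESeq2, upper-quartile factors or library size only, and 0 to 1 with a sample left out. Of the Ras-Raf-MEK-ERK genes 5 passed with DESeq2, 0 with the covariate, 0 without both mutants, and 1 to 3 with a sample left out. Of the exon choice regulators 1 passed with the covariate, 1 without both mutants, and 1 to 2 with a sample left out. Log2 ratios to Fgfr4 depend on the pseudocount. Their changes with 1 and with 0.5 were -0.85 and -0.31 for Fgfr1, 1.70 and 2.24 for Fgfr2, and 3.53 and 4.26 for Fgfr3, and with a sample left out that for Fgfr1 was -1.50 to -0.33. Without both mutants the Fgfr3 to Fgfr4 change was 2.43, the Fgfr1 to Fgfr2 change -2.04, the change in the Fgfr3 share 2.51 points, and the difference in mean CPM of Fgf7 turned from 0.242 to -0.0650. Without Control replicate 1 the difference for Fgfr4 was -0.682 CPM in place of -1.66. The cause of these changes was not tested.

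Same-numbered samples did not deviate together (correlations 0.144, -0.0640 and 0.0454), so the replicate numbers were not taken to pair them. With the replicate block 3191 genes passed and 1 co-receptor or carrier, and the log2 fold change was -2.06 for Fgfr1, 0.51 for Fgfr2, 2.71 for Fgfr3, -2.61 for Fgf1, 0.47 for Fgf9 and -5.61 for Fgf20, with no member call changed. With 3 samples a group no exact test could pass 0.05, and Fgf2, Fgf7, Fgf10 and Fgfr4 are limited by their counts.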
